A study of Sus scrofa with 21 samples.

Results

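The genes of fat cells and of the lipid droplet were followed through the hearts of young pigs, with and without a myocardial infarction (MI). The set holds 9 of the 25880 genes of the count table: the fat cell genes ADIPOQ, PLIN1, CIDEC, CIDEA and FABP4, and the perilipins PLIN2, PLIN3, PLIN4 and PLIN5. The members were chosen by their level in the tissue of a single heart, replicate 1 of the MI day 28 group, where they were high. The levels in that heart, and the difference between MI and naive hearts on day 28, are therefore given as a description with no test. The label held unevenly: 6 of the 9 genes had their highest level of all 21 libraries in that heart (ADIPOQ, PLIN1, CIDEC, CIDEA, FABP4 and PLIN3), while PLIN2 ranked 3, PLIN4 ranked 10 and PLIN5 ranked 14. Of all 15359 genes tested, 13.9% had their highest level there.

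Fat is stored in cells as lipid droplets, a core of triglyceride under a coat of perilipins. PLIN1 is the coat protein of the large droplets of fat cells, where the CIDE proteins fuse droplets and FABP4 carries fatty acids. ADIPOQ encodes adiponectin, a hormone that fat cells secrete. Heart muscle burns fatty acids and keeps small droplets of its own. PLIN5 ties these droplets to mitochondria, PLIN2 and PLIN3 coat droplets in most cell types, and PLIN4 is found in fat and striated muscle. Fat around the heart, and fat cells within scars, are known sites of fat cell genes in cardiac tissue.

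Total RNA was sequenced from 21 pigs with 1 library each. Naive hearts were collected on postnatal day 1 (n = 2), 3 (n = 2), 7 (n = 3), 14 (n = 3) and 28 (n = 3). MI hearts had a permanent tie of the left descending coronary artery on day 1 and were collected on day 7 (n = 3), 14 (n = 3) and 28 (n = 2). The tissue was the edge of the ischaemic area or the corresponding part of a naive heart. Sample titles use the word naive, whereas the protocol gives control pigs the operation without the tie, and the sources do not settle which holds. Strain, sex and litter are not stated there, and all pigs were fed colostrum and milk.

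Libraries held 37002909 to 95559841 counts. Levels are CPM, counts relative to the library total, scaled by the trimmed mean of M values (TMM), so that 3 counts were worth 0.0294 to 0.0811 CPM. The 12 cardiomyocyte markers in the table summed to 41140 to 107600 CPM, so heart muscle RNA was present in every library. A set of 4 libraries, called the second set below (MI day 7 replicate 3, naive day 14 replicate 3, naive day 28 replicate 2 and MI day 28 replicate 2), had 5.06 to 12.1 CPM of ENSSSCG00000035520 against at least 2819 CPM in the others, and the labels name no batch. MI day 28 replicate 1, not of that set, had the highest share of mitochondrially encoded counts (34.6%). Its TMM factor of 0.818 raised its CPM, where factors ran from 0.807 (naive day 14 replicate 3) to 1.19 (MI day 28 replicate 2). In bulk tissue, fewer cells of a type and less RNA per cell cannot be told apart.

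In the pig genome, PLIN5 and PLIN4 are neighbours in the same orientation (chr2:74304613-74314314 and chr2:74318624-74331920, plus strand, Sscrofa11.1, RefSeq). ADIPOQ lies at chr13:124633906-124646237 (plus), PLIN1 at chr7:55237517-55250797 (minus), CIDEC at chr13:66141836-66149801 (minus), CIDEA at chr6:97253074-97268355 (minus) and FABP4 at chr4:55096400-55101209 (plus). PLIN2 lies at chr1:203683867-203709277 (plus) and PLIN3 at chr2:73970149-73995314 (plus). The spans of PLIN1, CIDEC, PLIN2 and PLIN4 each overlap that of another annotated gene, on the same strand for PLIN2 and on the opposite strand for the others. With no stated strand setting, reads from bases shared by an opposite-strand pair cannot be told apart. For the PLIN2 pair no setting would separate them. Overlap of exons was not examined. The 250 bases before the RefSeq start of 3 fat cell genes are shown because these genes stood highest over the other libraries in the selected heart. The windows were searched on both strands for AGGTCA (the core motif of nuclear receptors such as PPARG), CCAAT and TATAAA, with matches in capitals. The windows are chr13:124633656-124633905 for ADIPOQ (plus strand), chr7:55250798-55251047 for PLIN1 (minus strand) and chr6:97268356-97268605 for CIDEA (minus strand), each written 5′ to 3′ along its gene.
ADIPOQ: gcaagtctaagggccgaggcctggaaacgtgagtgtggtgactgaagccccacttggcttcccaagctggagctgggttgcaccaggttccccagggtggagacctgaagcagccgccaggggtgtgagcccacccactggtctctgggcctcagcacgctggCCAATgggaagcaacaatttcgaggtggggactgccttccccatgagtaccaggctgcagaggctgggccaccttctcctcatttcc
PLIN1: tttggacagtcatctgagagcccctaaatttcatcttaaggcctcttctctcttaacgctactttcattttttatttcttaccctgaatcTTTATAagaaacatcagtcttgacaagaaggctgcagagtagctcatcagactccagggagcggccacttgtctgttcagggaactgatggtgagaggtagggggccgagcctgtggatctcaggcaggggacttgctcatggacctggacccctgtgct
CIDEA: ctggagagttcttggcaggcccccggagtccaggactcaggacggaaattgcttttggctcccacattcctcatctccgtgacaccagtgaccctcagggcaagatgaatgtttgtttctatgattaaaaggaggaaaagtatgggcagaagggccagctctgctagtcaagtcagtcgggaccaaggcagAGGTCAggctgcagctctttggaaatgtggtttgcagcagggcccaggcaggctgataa
ADIPOQ had 1 CCAAT box, PLIN1 had 1 TATAAA in the reverse orientation, and CIDEA had 1 AGGTCA. Of the 9 genes, CIDEA was the only one with AGGTCA in the window, a motif in 12.2% of 19556 promoters of the same length. CCAAT was in 31.9% of those promoters and TATAAA in 9.77%. A match in such a window is a string of letters and not a measured binding site.

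Per kilobase of RefSeq exon, the naive heart expressed the set over a wide range. FABP4 had a median of 279 CPM per kilobase over the 13 naive libraries (123 to 325). The perilipins followed at 11.4 for PLIN4 (6.39 to 28), 9.75 for PLIN5 (4.18 to 22.5), 8.86 for PLIN3 (5.74 to 12.3) and 7.96 for PLIN2 (5.33 to 16.9), with ranges that overlapped between all 4. CIDEC (0.466, range 0.197 to 0.559) and CIDEA (0.462, 0.147 to 1.04) could not be told apart by their spread. PLIN1 (0.0583, 0 to 0.414) and ADIPOQ (0.0172, 0 to 3.13) were lowest, from 0 to 29 counts for PLIN1 and at most 2 counts in most naive hearts for ADIPOQ. In MI day 28 replicate 1 the order was another, with ADIPOQ at 118 CPM per kilobase below FABP4 at 591 and above CIDEA at 20.1.

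**Figure D1:**
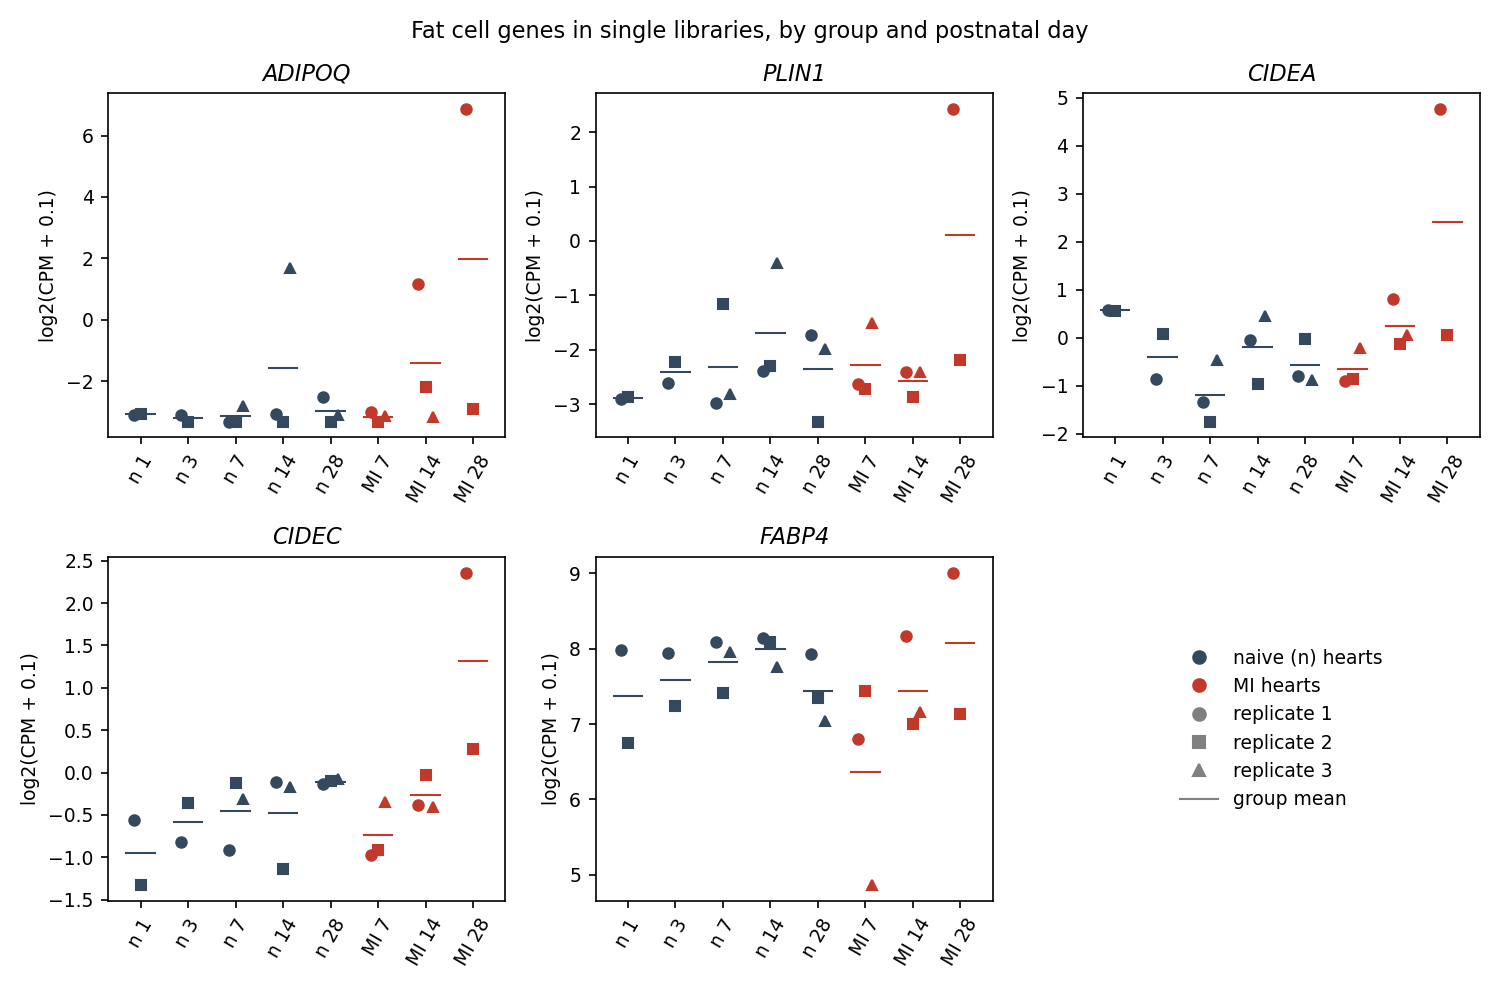
Level of the 5 fat cell genes in each library, as log2(CPM + 0.1), by group (n, naive; MI, infarcted; number, postnatal day), with a line at the group mean. MI day 28 replicate 1 is the highest point in all 5 panels, and naive day 14 replicate 3 and MI day 14 replicate 1 stand above the rest for ADIPOQ.

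ADIPOQ was present in quantity in a single heart. MI day 28 replicate 1 had 7473 counts (116 CPM), while MI day 28 replicate 2 had 2 counts and the naive day 28 hearts had 6, 0 and 1. Elsewhere, naive day 14 replicate 3 had 137 counts (3.08 CPM), MI day 14 replicate 1 had 123 (2.17 CPM) and MI day 14 replicate 2 had 10. In all, 16 libraries had at most 2 counts, 6 of them 0. The selected heart thus stood 37.7 times above the next library. The ADIPOQ signal of the MI day 28 group was that of replicate 1 alone.

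PLIN1 and CIDEA followed the same library. PLIN1 had 339 counts (5.27 CPM) in MI day 28 replicate 1, 7 in replicate 2, 16, 0 and 9 in the naive day 28 hearts, and 29 (0.652 CPM) in the next library, naive day 14 replicate 3. CIDEA, a droplet fusion protein of brown fat and of active white fat, was at 27 CPM in replicate 1 and 0.948 CPM in replicate 2, against 0.479, 0.881 and 0.44 CPM in naive day 28 hearts. Its next library was MI day 14 replicate 1 at 1.65 CPM, so that the ratio to the next was 16.3 for CIDEA and 8.08 for PLIN1. CIDEA differed from ADIPOQ in being counted in every heart, at 0.198 CPM or more.

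CIDEC and FABP4 stood out less. CIDEC, which makes the single large droplet of white fat cells, was at 5.03 CPM in MI day 28 replicate 1 and 1.12 CPM in replicate 2, against 0.807, 0.834 and 0.847 CPM in naive day 28 hearts. Replicate 2 was the second highest of the 21 libraries, and both MI hearts lay above all 3 naive ones. FABP4, which capillary endothelium also makes, was at 515 CPM in replicate 1 and 140 CPM in replicate 2, against 243, 163 and 131 CPM. Only replicate 1 exceeded the naive hearts for FABP4, by 1.8 times the next of all libraries, MI day 14 replicate 1 at 287 CPM.

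**Figure D2:**
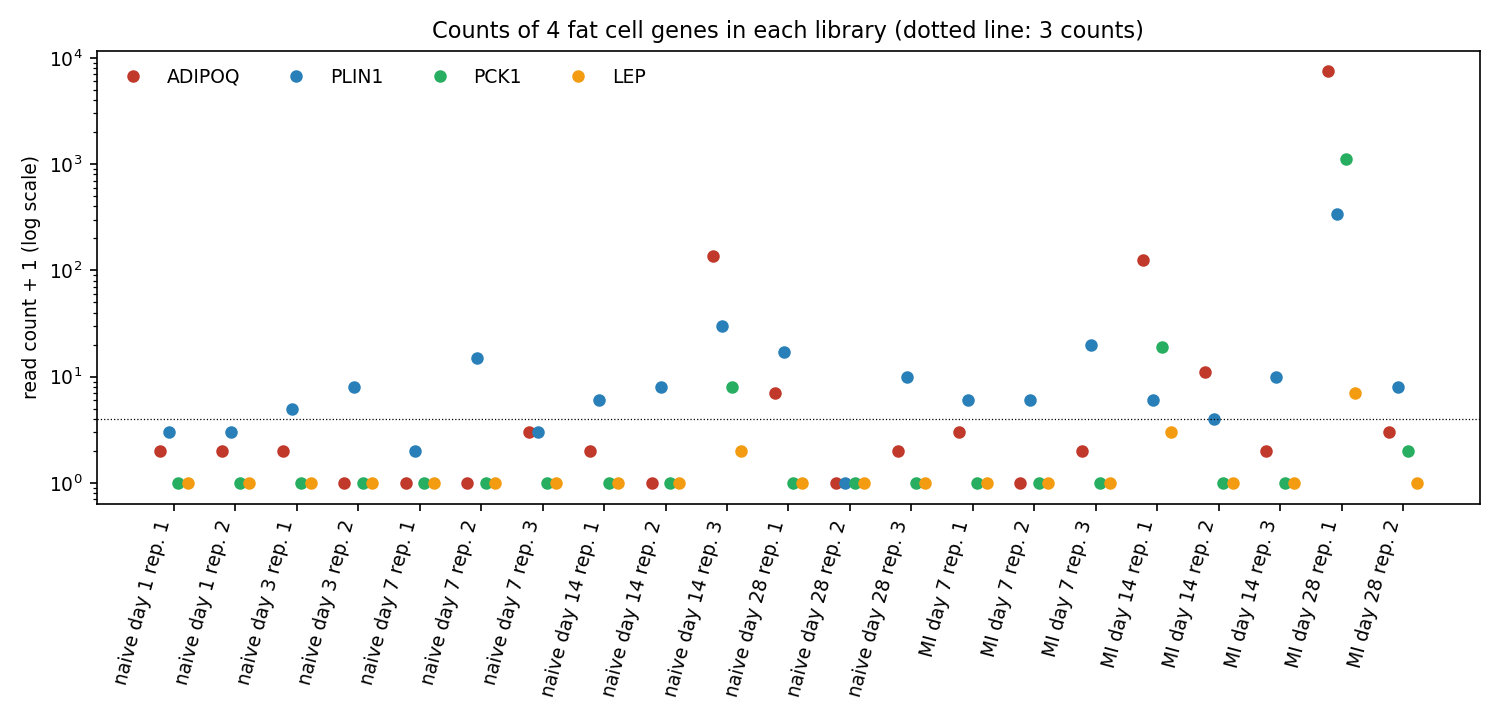
Read counts plus 1 of ADIPOQ, PLIN1, PCK1 and LEP in each of the 21 libraries on a log scale, with a dotted line at 3 counts. All 4 genes peak in MI day 28 replicate 1, and ADIPOQ has 137 counts in naive day 14 replicate 3 and 123 in MI day 14 replicate 1.

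Over the day 28 comparison, the fitted log2 fold changes of MI over naive hearts were 4.43 for PLIN1, 4.55 for CIDEA, 1.89 for CIDEC and 0.87 for FABP4. Without replicate 1, which leaves 1 MI heart, they were -0.03, 0.69, 0.45 and -0.32. These values describe the libraries that chose the set. CIDEC, CIDEA and PLIN2 were higher in both MI hearts than in all naive ones and PLIN5 was lower, in a comparison where 16.4% of all genes were higher without overlap and 21.4% lower. For this comparison edgeR called 6.86% of all genes, 4.47% higher and 2.38% lower, shares from which nothing is read for the set.

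Other genes of fat cells were high in the same library, though not all. Of 19 further fat cell genes in the table, 8 had their highest level in MI day 28 replicate 1. Of these 8, TRARG1, LEP and ACVR1C did not pass the filter. Among the 15 tested it was 5, against 13.9% of all genes tested. PCK1, also among the 5, had 1114 counts there, 18 in MI day 14 replicate 1 and at most 7 elsewhere. Its passing of the filter thus rested on the selected library, and its place among the 5 is no separate support. PPARG, among the 5, was a near tie (10.13 CPM, next 10.03 CPM). PCK1, an enzyme that makes the glycerol backbone of triglyceride in fat cells, was at 17.3 CPM there, 0.0169 CPM in replicate 2 and at most 0.317 CPM in the rest (MI day 14 replicate 1). Its ratio of 41.8 to the next library (0.1 CPM added to each) was the highest of 11269 genes with a symbol and at least 1 CPM, ahead of ADIPOQ. TRARG1, which regulates the insulin-sensitive glucose transporter of fat and muscle, was at 2.07 CPM against at most 0.0989 CPM. The hormone LEP reached 0.0932 CPM, at most 0.0352 CPM elsewhere. LEP, which rests on 6 counts, was named after its values were seen.

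Of the 5 most abundant genes of that list, LPL, the lipase that frees fatty acids from lipoproteins, was at 1704 CPM against at most 1314 CPM in the other 20 libraries. The fatty acid synthase FASN was at 164 CPM against at most 107 CPM, and the protease CFD (adipsin) at 188 CPM against 124 CPM in MI day 28 replicate 2. SLC2A4, the insulin-sensitive glucose transporter, was at 126 CPM and GPD1, which links glycolysis to glycerol, at 36.6 CPM, each exceeded in at least 1 other library (up to 182 and 46.1 CPM). Lipogenic genes did not all point the same way. The desaturase SCD was at 7.33 CPM, within the naive day 28 range of 3.91 to 17.9 CPM, and the elongase ELOVL6 at 3.11 CPM was below its range of 5.55 to 26.1 CPM. SCD and ELOVL6 were named after their values were seen.

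Genes of brown or beige fat were not high as a group in MI day 28 replicate 1, in which CIDEA was. Of 6 tested, 2 were above the naive day 28 range and 2 below, against 33.6% and 36.3% of all genes. Of 8 in the table, the respiratory subunit COX7A1, also made by heart muscle, was highest there (339 CPM, at most 243 CPM elsewhere). The coactivator PPARGC1A (104 CPM) and the transcription factor PRDM16 (5.66 CPM) were below the naive day 28 ranges of 173 to 205 and 8.53 to 15.4 CPM. EBF2 (15.01 CPM) and DIO2 (5.44 CPM) were within theirs. ELOVL3 was above its range at a low level (0.14 CPM, range 0 to 0.0505 CPM). ZIC1 and LHX8, of classical brown fat, had no count. UCP1 was not analysed here.

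Genes of the machinery that builds and empties droplets lay on both sides of the naive day 28 range in MI day 28 replicate 1. Of 18 genes for droplet assembly and lipolysis, 3 were highest there, near the 13.9% of all genes tested. These were the triglyceride lipase PNPLA2 (286 CPM, at most 151 CPM elsewhere), the droplet protein AUP1 (77.1 CPM, at most 57.8 CPM) and RAB18, a near tie (126 CPM, at most 125 CPM). The list had 6 genes above and 9 below the naive day 28 range in that heart, against 33.6% and 36.3% of all genes. MGLL, which completes lipolysis, was at 293 CPM and the assembly protein FITM2 at 114 CPM, both below the naive range (312 to 503 and 228 to 290 CPM). Of 12 tested targets of PPAR factors and genes of fatty acid use, 4 were above and 7 below that range. In that list 2 of the 12 had their highest level of all libraries there, against 13.9% of all genes tested. These were FABP5 at 458 CPM (383 CPM next) and ANGPTL4, which inhibits LPL, at 74.0 CPM (65.7 CPM next). Both were named after their values were seen.

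**Figure D3:**
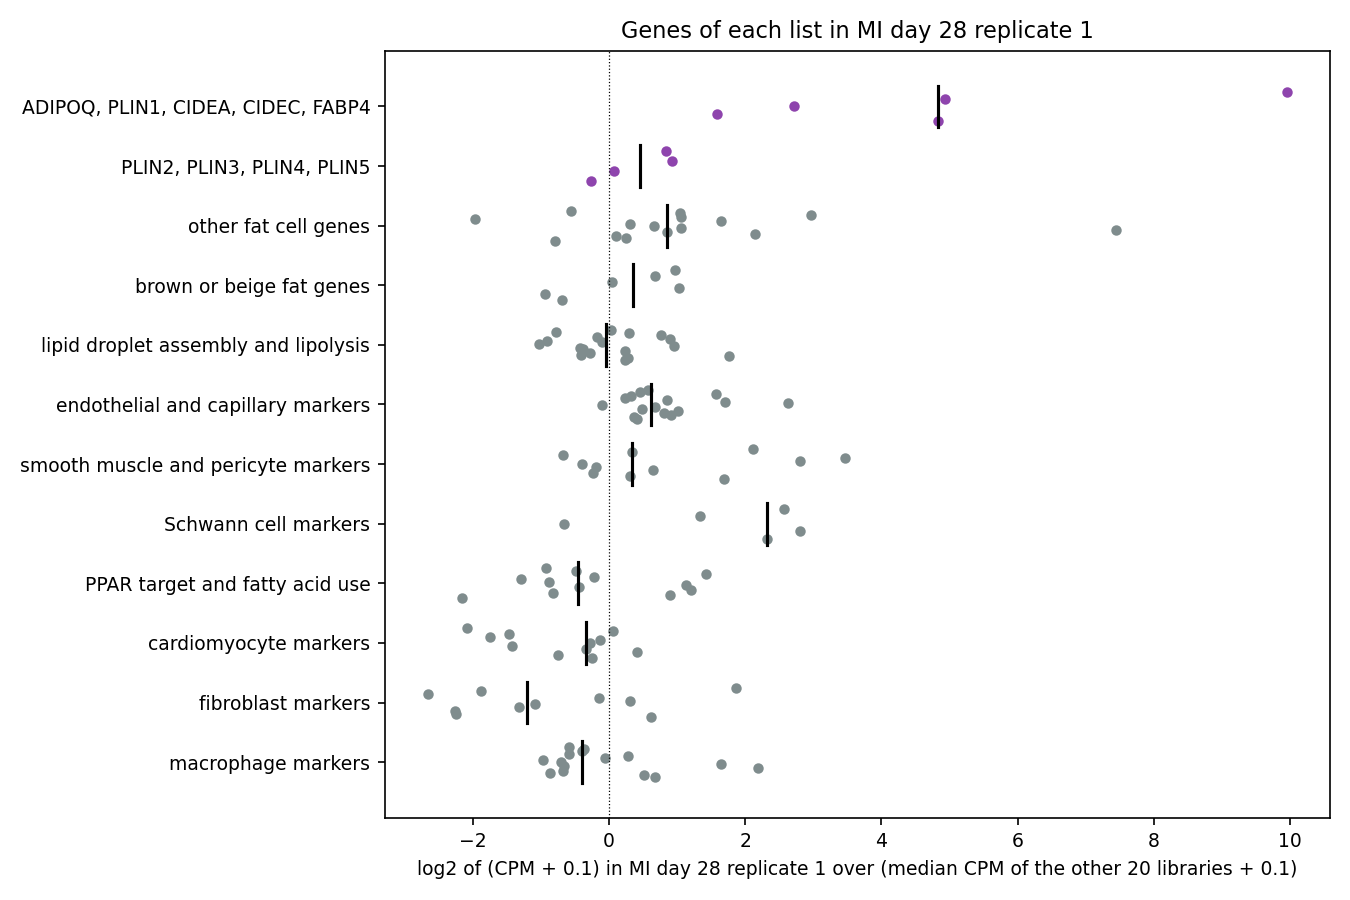
Log2 ratio of the level in MI day 28 replicate 1 to the median of the other 20 libraries (0.1 CPM added to both) for each gene of each list, with a bar at the list median. The 5 fat cell genes have a median of 4.83, perilipins 2 to 5 one of 0.45 and the other fat cell genes one of 0.85.

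Markers of other cells moved in that library too, and their part in the levels of the set was not tested. Of 16 endothelial and capillary markers, 13 were above the naive day 28 range and 8 were the highest of all libraries, as were 13.9% of all genes tested. Of these 8, MEOX2 (36.29 CPM, next 36.15 CPM) and TCF15 (24.7 CPM, next 23.7 CPM) were near ties. GPIHBP1, which holds LPL on the capillary wall, was at 72.5 CPM (at most 28.6 CPM elsewhere) and FLT1, a VEGF receptor, at 299 CPM (at most 133 CPM). GPIHBP1 and FLT1 were named after their values were seen. The 16 markers summed to 2476 CPM, against 1131 to 1856 CPM in naive day 28 hearts and up to 2664 CPM in any other heart. Cardiomyocyte markers summed to 52770 CPM in replicate 1 and 41140 CPM in replicate 2, against 82310 to 94530 CPM, with 9 and 11 of 11 tested below the naive range. Macrophage markers summed to 384 CPM in replicate 1, within the naive range of 92.5 to 458 CPM, and to 4213 CPM in replicate 2. Of 15, 4 were above the naive range and 0 below in replicate 1, and 14 were above in replicate 2. Fibroblast markers summed to 1672 CPM in replicate 1 and 17550 CPM in replicate 2, against 2896 to 5564 CPM. Of 10, 3 were above the naive range (C7, TCF21 and DPT) and 5 below in replicate 1, and all 10 were above in replicate 2. Of all tested genes, 33.6% were above and 36.3% below in replicate 1, and 32.9% and 36.9% in replicate 2. The 2 MI day 28 hearts thus differed in which cell markers were high.

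By the ratio to the next library, the genes most like the fat cell members included, after PCK1, the tight junction gene CLDN4 (30.7), UNC93A (20.7), the histidine lyase HAL (14.6), the chemokine CCL26 (12), the kinase SGK2 (11.3), TRARG1 (10.9), the transcription factor MAFF (9.25) and the arginine synthesis enzyme ASS1 (8.54). Among the members the ratio ranked 2 for ADIPOQ, 5 for CIDEA, 16 for PLIN1, 42 for CIDEC and 238 for FABP4 of the 11269 genes. PLIN3 ranked 558, PLIN2 2705, PLIN4 8788 and PLIN5 9512. These ranks rest on the library by which the members were chosen.

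**Figure D4:**
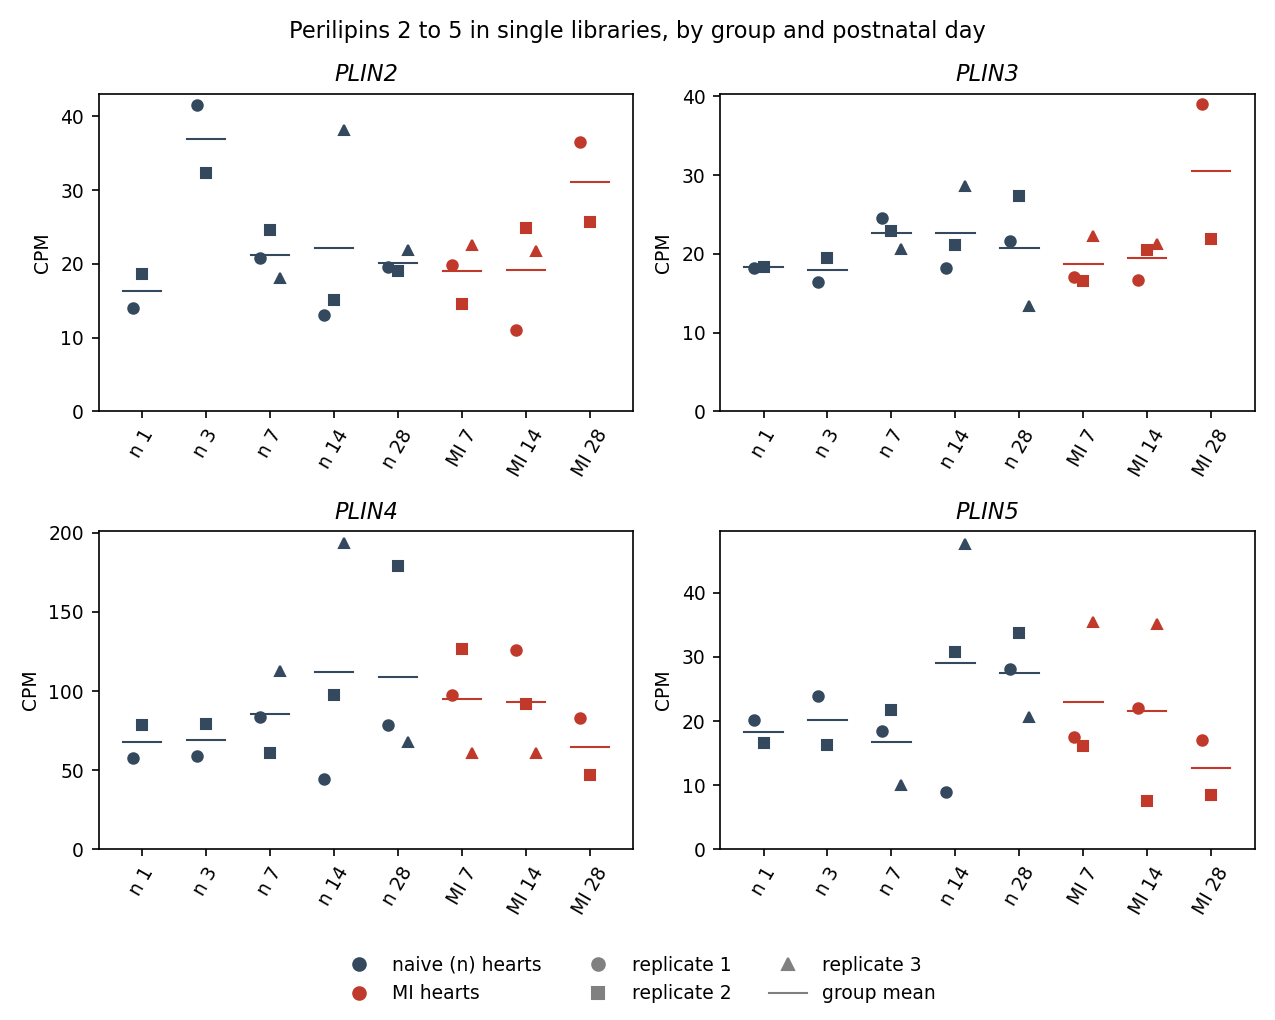
CPM of PLIN2, PLIN3, PLIN4 and PLIN5 in each library by group (n, naive; MI, infarcted; number, postnatal day), with a line at the group mean. PLIN4 and PLIN5 peak in naive day 14 replicate 3, at 194 and 47.6 CPM, and not in MI day 28 replicate 1.

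Of the perilipins other than PLIN1, PLIN3 alone had its highest level in MI day 28 replicate 1. PLIN4 was at 82.7 and 46.9 CPM in the MI day 28 hearts and at 78.7, 179 and 67.8 CPM in the naive ones, and the groups overlapped. PLIN5, the perilipin of oxidative muscle, was at 17.0 and 8.39 CPM against 28.1, 33.8 and 20.6 CPM, both MI hearts being lower than all naive ones. Fitted log2 fold changes were -0.74 for PLIN4 and -1.12 for PLIN5. Without the second set, which leaves replicate 1 as the only MI heart and takes out naive day 28 replicate 2, they were 0.19 and -0.51. Leaving out single libraries kept PLIN4 negative, from -1.18 without MI day 28 replicate 1 to -0.15 without naive day 28 replicate 2.

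PLIN2 and PLIN3 were moderately high in MI day 28 replicate 1. PLIN2, which is induced when fatty acids accumulate, was at 36.5 and 25.6 CPM against 19.5, 19.1 and 21.9 CPM in naive hearts. PLIN3, which covers nascent droplets, was at 39.1 and 21.9 CPM against 21.6, 27.4 and 13.4 CPM. Both MI hearts were above all naive ones for PLIN2 and only replicate 1 was for PLIN3. The log2 fold changes were 0.62 for PLIN2 and 0.55 for PLIN3, with PLIN3 at 1.17 without the second set, where replicate 1 is the only MI heart.

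Earlier after infarction, 0 of the 9 genes were called by edgeR's quasi-likelihood test with Benjamini-Hochberg adjustment over all 15359 genes (adjusted p under 0.05). On day 7 the test called 0% of all genes, 1905 (12.4%) had an unadjusted p under 0.05, none of them a member, and DESeq2 called 263 genes but 0 members. The groups overlapped for all 9 members, while 13.9% of all genes were higher and 10.4% lower without overlap. FABP4 was at 111, 174 and 29.0 CPM in MI and 273, 170 and 249 CPM in naive hearts, which gave -1.14 on the log2 scale (SE 0.56, edgeR adjusted p = 0.415; -1.72 to -0.69 over the alternatives, adjusted p 0.272 to 0.767). The groups overlapped by 1 pair of hearts, and the lowest value was that of MI day 7 replicate 3, of the second set. The other members had log2 fold changes of -0.36 to 0.55. PLIN5 stood at 0.46 (SE 0.55), with 17.5, 16.1 and 35.5 CPM in MI against 18.4, 21.8 and 9.95 CPM.

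On day 14 the test again called 0% of all genes (821 at an unadjusted p under 0.05, 5.35%, none a member; DESeq2 14 genes, 0 members). PLIN1 was lower in all MI than in all naive hearts, at 0.088, 0.0362 and 0.0883 CPM against 0.0918, 0.103 and 0.652 CPM. The counts behind this were 5, 3 and 9 against 5, 7 and 29, the log2 fold change was -1.95 (SE 1.27, edgeR adjusted p = 0.999), and 4.49% of all genes were lower and 3.72% higher without overlap. The perilipins differed by less than their errors: PLIN4 was at -0.27 (SE 0.47), PLIN5 at -0.43 (SE 0.55), PLIN2 at -0.20 (SE 0.35) and PLIN3 at -0.22 (SE 0.25). For the MI effect of day 14 minus that of day 7, edgeR called 0.00651% of all genes and 0 members. At an unadjusted p under 0.05 there were 1086 genes (7.07%) and 0 members, and DESeq2 called 33 genes and 0 members.

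Across naive development, 0 members were called in any of 4 comparisons, in which edgeR called 0% of all genes. From day 1 to day 7 the unadjusted test passed 835 genes (5.44%) and DESeq2 called 12. CIDEA was the only member among the 835, at 1.4 and 1.38 CPM on day 1 and 0.297, 0.198 and 0.621 CPM on day 7. It was lower without overlap, as were 12.9% of all genes (log2 fold change -1.88, SE 0.87, edgeR adjusted p = 0.914). Over the alternatives its log2 fold change was -2.48 to -1.58, and its adjusted p, from edgeR or DESeq2, was at least 0.42. PLIN3 was higher without overlap (24.5, 22.9 and 20.7 against 18.3 and 18.4 CPM, log2 fold change 0.31, SE 0.28, edgeR adjusted p = 0.944), as were 11.8% of all genes. From day 7 to 14 and from day 14 to 28 the groups overlapped for all 9 members. Of all genes, 10.1% were higher and 6.8% lower without overlap in the earlier of these steps, and 1.74% and 3.01% in the later. The gene counts were 1357 unadjusted (8.84%) and 96 by DESeq2 for day 14 against day 7, 177 (1.15%) and 0 for day 28 against day 14, and 809 (5.27%) and 0 for day 28 against day 1, with 0 members among them.

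From day 1 to day 28, CIDEC went from 0.578 and 0.298 CPM to 0.807, 0.834 and 0.847 CPM, PLIN2 from 14 and 18.6 to 19.5, 19.1 and 21.9 CPM, and PLIN5 from 20.2 and 16.5 to 28.1, 33.8 and 20.6 CPM. All 3 were higher without overlap, as were 12.6% of all genes, and CIDEA was lower, as were 12.5%. The log2 fold changes were 0.91 (SE 0.59) for CIDEC, 0.31 (SE 0.4) for PLIN2, 0.58 (SE 0.63) for PLIN5 and -1.22 (SE 0.85) for CIDEA, with edgeR adjusted p of 0.867, 0.891, 0.875 and 0.867.

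PLIN2 had its highest group level on day 3. It was at 41.6 and 32.3 CPM in naive day 3 hearts and 14 and 18.6 CPM on day 1, or 1.18 higher on the log2 scale (SE 0.43, unadjusted p = 0.0148, edgeR adjusted p = 0.965). This comparison was added after those values were seen. In it edgeR called 0% of all genes, 543 (3.54%) passed unadjusted, DESeq2 called 3 genes and 0 members, and 19.7% of all genes were higher and 17.3% lower without overlap. CIDEA was lower without overlap (log2 fold change -0.98, SE 0.94, edgeR adjusted p = 0.965). PLIN1 was higher without overlap at 4 and 7 counts against 2 and 2 (log2 fold change 1.27, SE 1.74, edgeR adjusted p = 0.967). ADIPOQ was lower without overlap at 1 and 0 counts against 1 and 1, all under the floor of 3 counts. The pyruvate dehydrogenase kinase PDK4, which rises when the heart turns to fatty acids, was at 902 and 1046 CPM against 227 and 12.7 CPM (3.02, SE 1.25, edgeR adjusted p = 0.965). The droplet assembly gene FITM2 was at 327 and 270 CPM against 164 and 134 CPM (1.00, SE 0.44, edgeR adjusted p = 0.965). Neither passed the test over all genes.

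Of the 51 tested genes on the 4 lists of fat cells, brown fat, droplets and PPAR targets, edgeR called 0 in the 7 comparisons. At an unadjusted p under 0.05 there were 8 on day 7 after infarction (2 higher, 6 lower), 5 on day 14 (1 higher, 4 lower) and 3 for the change between these days, where 12.4%, 5.35% and 7.07% of all genes passed. The naive comparisons had 2, 2, 0 and 2 in the order given above, where 5.44%, 8.84%, 1.15% and 5.27% of all genes passed. The added comparison of day 3 with day 1 had 8 (5 higher, 3 lower), where 3.54% of all genes passed, and edgeR and DESeq2 called 0 of the 51 there. In the 7 comparisons DESeq2 called 1, the fatty acid dehydrogenase ACADM on day 7.

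PLIN5 rose with the cardiomyocyte markers by Pearson's r, while Spearman's rho did not pass the adjustment. Over the 20 libraries other than MI day 28 replicate 1, all 11 tested cardiomyocyte markers correlated positively with PLIN5, with a median r of 0.63. All 10 fibroblast markers correlated negatively, with a median of -0.64, as did all 15 macrophage markers (-0.46) and all 5 epicardial and mesothelial markers (-0.54). The median r of PLIN5 with all tested genes was 0.0264. Against the mean log2 level of the cardiomyocyte markers, Pearson's r was 0.735 (permutation p = 0.00015, adjusted 0.003 over 20 relations) and Spearman's rho 0.57 (permutation p = 0.0105, adjusted 0.0698). Pearson's r was 0.614 without the 2 libraries farthest from the median (MI day 28 replicate 2 and MI day 14 replicate 2), 0.705 in the 16 libraries outside the second set and 0.775 in the 13 naive hearts. Against fibroblast markers r was -0.691 (permutation p = 6e-04, adjusted 0.006) and rho -0.544 (permutation p = 0.0142, adjusted 0.071), with r at -0.582 without the 2 farthest libraries, -0.428 outside the second set and -0.547 in naive hearts. Against macrophage markers neither r (-0.443, permutation p = 0.0495, adjusted 0.142) nor rho (-0.498, permutation p = 0.0269, adjusted 0.0898) passed the adjustment. There r was -0.39 without the 2 farthest libraries, -0.339 outside the second set and -0.145 in naive hearts. The mean of the epicardial and mesothelial markers was not tested. The relations were computed after the values were seen, and the libraries share normalization and groups, which the permutations did not take into account.

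**Figure D5:**
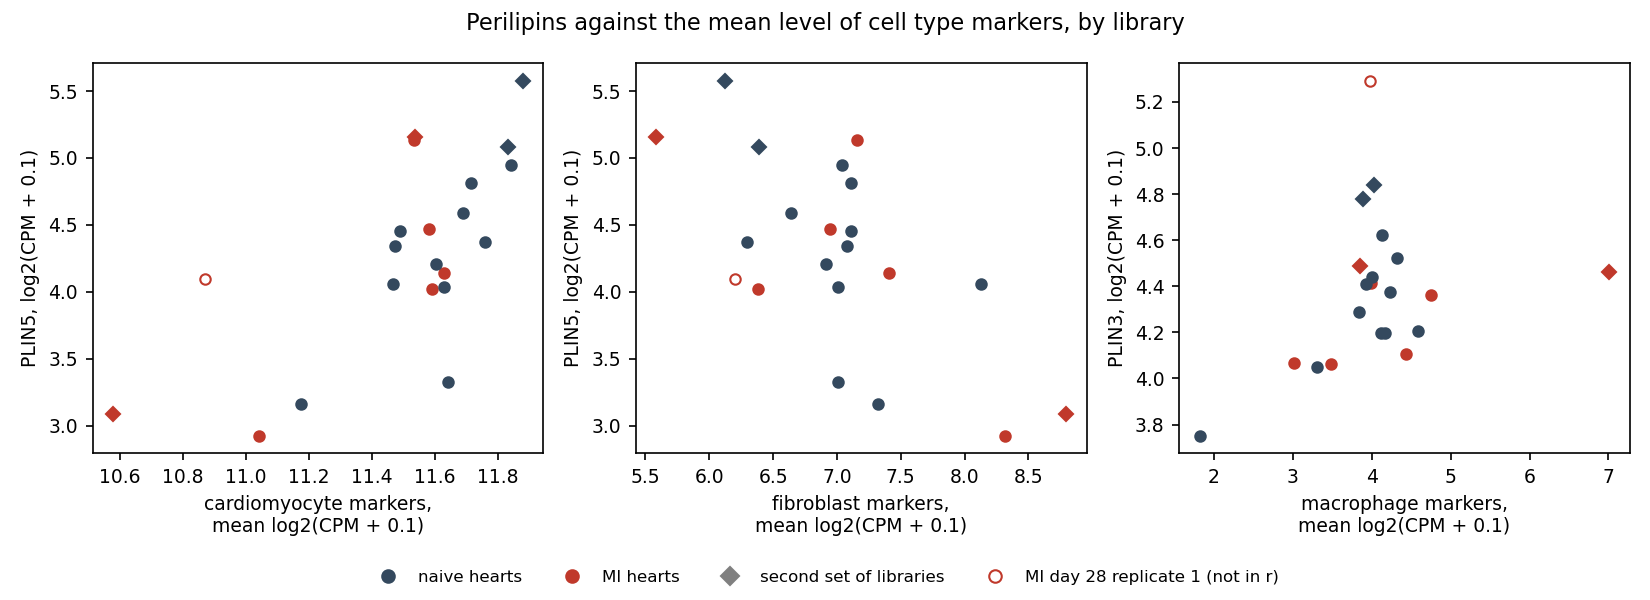
PLIN5 against the mean level of cardiomyocyte and of fibroblast markers, and PLIN3 against that of macrophage markers, all as log2(CPM + 0.1), with 1 point per library. Over the 20 filled points r is 0.735, -0.691 and 0.449, and the open circle is MI day 28 replicate 1.

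The relations of the other perilipins and FABP4 named here did not pass the adjustment. PLIN4 correlated with the cardiomyocyte markers at r = 0.562 (rho 0.568, permutation p = 0.00954 and 0.0103, adjusted 0.0636 and 0.0698), with r at 0.681 without the 2 farthest libraries, 0.286 outside the second set and 0.747 in naive hearts. PLIN3 and the macrophage markers had r = 0.449 (rho 0.341, permutation p = 0.047 and 0.139, adjusted 0.142 and 0.347), with r at 0.265 without the 2 farthest libraries, 0.701 outside the second set and 0.6 in naive hearts. PLIN2 was negative against the endothelial markers (r = -0.481, rho -0.579, permutation p = 0.0317 and 0.00861, adjusted 0.142 and 0.0698), with r at -0.456 without the 2 farthest, -0.676 outside the second set and -0.453 in naive hearts. FABP4 was positive against them (r = 0.442, rho 0.507, permutation p = 0.0491 and 0.0233, adjusted 0.142 and 0.0898), with r at 0.413, 0.56 and 0.367 in the same order.

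Among all tested genes with a symbol, those most like PLIN4 over the same 20 libraries were the fatty aldehyde dehydrogenase ALDH3A2 (Pearson's r = 0.902), the muscle creatine kinase CKM (0.838) and MAP4 (0.829). For PLIN5 they were the sterol-binding protein gene OSBPL1A (0.866), RAPGEF5 (0.855) and TMEM246 (0.855), for PLIN3 KY (0.861), RAB29 (0.853) and ITGB5 (0.844), and for PLIN2 NBAS (0.814), ZNF546 (0.81) and VPS33A (0.79). FABP4 was closest to BAG2 (0.849), FLT4 (0.84) and LAYN (0.833), FLT4 being the VEGF receptor of lymphatic endothelium. They were picked as the highest correlations and are given with no test.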

How the data were processed

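Total RNA of 21 pig hearts was analysed from the counts per Ensembl gene that the authors deposited (25880 genes, whole numbers, not normalized). The tools named in the submitters' processing notes are Trim Galore, STAR 2.5.2, HTSeq 0.6.1 and DESeq2, and the build is Sscrofa11.1. Strand setting and annotation release: not given in the sources used here. Reads from bases that PLIN1, CIDEC, PLIN2 and PLIN4 share with overlapping genes (per RefSeq) therefore cannot be told apart, for PLIN2 under any setting. Symbols were in the file for 17947 genes and added by gene ID for 807.

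Samples were grouped by infarction and day. The filter was filterByExpr in edgeR 4.0.16 (R 4.3.3), which left 15359 genes and all 9 members. Libraries were scaled by TMM, and fitted with 1 mean per group over all 21 libraries (glmQLFit, robust, 13 residual degrees of freedom, common dispersion 0.139). The spread of each gene was thus estimated with MI day 28 replicate 1 included, by which the members were chosen. SE and p of the members in every tested comparison therefore rest partly on its gap to replicate 2. ADIPOQ passed the filter level in 3 libraries and PLIN1 in 5, the others in all 21. Contrasts were tested two-sided with quasi-likelihood F tests and Benjamini-Hochberg adjustment, 0.05 being the threshold. SE were derived from the F statistic. The fit was tested on simulated data. Alternatives were another scaling, other filters, DESeq2 1.42.0, other sample sets, and leaving out each library. Correlations used 100000 permutations. Figures were drawn with matplotlib 3.10.9.

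The members, the lists and the rule for naming genes were chosen with earlier results of these data known. Named were all members, the 5 most abundant genes of the fat cell, brown fat and droplet lists in MI day 28 replicate 1, the 10 non-member genes most particular to that library (an item among them is not reported here), the 3 genes most like each of 5 members, and up to 3 called genes per list. AQP7, CKMT1A, CD36, TTN, CLDN5, MSLN, ITLN1, KRT19 and S100B were not analysed here.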

Additional observations from a re-analysis of the deposited data

How the results depend on the processing

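In each of the 7 tested comparisons, 0 members were called in all of the 29 alternatives that gave a value. Among these was a fit without the MI day 28 group. The count over all genes moved more: DESeq2 called 263, 14, 33, 12, 96, 0 and 0 genes where edgeR called 0, 0, 1, 0, 0, 0 and 0. The fitted log2 fold change of ADIPOQ from naive day 14 to day 28, -4.70 (edgeR adjusted p = 1), reversed to 1.92 without naive day 14 replicate 3 and to 2.36 without the second set, and ranged from -6.42 to 1.92 over leaving out each library. It rests on 137 counts in that replicate. For the day 28 values, which have no test, leaving out each library gave -0.02 to 12.27 for ADIPOQ, -0.03 to 5.41 for PLIN1, 0.69 to 5.53 for CIDEA, 0.45 to 2.62 for CIDEC, -0.32 to 1.55 for FABP4, 0.37 to 0.88 for PLIN2, 0.11 to 0.94 for PLIN3, -1.18 to -0.15 for PLIN4 and -1.69 to -0.67 for PLIN5, the lowest of ADIPOQ, PLIN1, CIDEA, CIDEC and FABP4 being without MI day 28 replicate 1. No paired analysis was possible because the labels give each pig its own number and no number shared between groups. Depth limited ADIPOQ, which was under the floor of 3 counts in 16 libraries, and PLIN1, which had at most 29 counts outside MI day 28 replicate 1.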

Other observations

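Beside the fat cell genes, smooth muscle, nerve and epicardial genes were uneven in MI day 28 replicate 1. LMOD1, an actin nucleator of smooth muscle, was at 55.8 CPM there and at most 9.66 CPM in the other 20 libraries, and the smooth muscle myosin MYH11 at 303 CPM against at most 134 CPM (MI day 14 replicate 1). Of 11 smooth muscle and pericyte markers, 4 were highest in that library, as were 13.9% of all genes tested. There 5 were above the naive day 28 range and 2 below, MYOCD (28.1 CPM, range 35.7 to 49.6 CPM) and CSPG4 (18.1 CPM, range 24.4 to 28.5 CPM). The 11 markers summed to 1932 CPM, against 1155 to 1296 CPM in naive day 28 hearts. Of 5 Schwann cell markers, 4 were above the naive day 28 range, SOX10 among them (11.3 CPM, naive range 0.525 to 3.07 CPM). NCAM1, the most abundant, was below its range (183 CPM, naive range 238 to 323 CPM). With it the list summed to 219 CPM, against 249 to 326 CPM in naive day 28 hearts. Of all tested genes, 33.6% were above the naive day 28 range in that library and 36.3% below. Of 5 epicardial and mesothelial markers, 3 were above that range and 0 had their highest level there, with a sum of 79.0 CPM against 20.03 to 102 CPM. These genes were named after their values were seen, and their relation to the fat cell genes was not tested.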
